A study of Mus musculus with 8 samples.

Results

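The genes described here, most of them for mouse translation initiation factors, were measured by RNA sequencing in embryos at the 2-cell stage. All symbols made of Eif, a digit from 1 to 6 and further small letters or digits were taken, without the Eif2ak kinases, which gave 54 of the 55487 genes in the table. The pattern also left out 10 genes with pseudogene symbols, which end in -ps, alone or with a number. Of the 54, Eif2c5 is annotated as a long intergenic non-coding RNA on chromosome X, carries an older symbol of the Argonaute family and is not an initiation factor gene. It had 0 to 2 counts per library and was not tested, so the comparison holds the other 53. These include Eif4ebp1, Eif4ebp2, Eif4ebp3 and Eif4enif1, for proteins that bind the factor eIF4E, and Eif4a3, of the exon junction complex. All 53 are called initiation factor genes below.

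The study asked what a knockdown of Polq by CasRX does to the transcriptome. CasRX is a guided enzyme that cuts RNA, and Polq encodes DNA polymerase theta, an enzyme of DNA end joining. Injection took place at the zygote stage, 20 h after human chorionic gonadotropin (hCG), and RNA extraction followed 10 h after that, on pools of 5 embryos each. The 4 control samples, with the genotype given as WT, received CasRX, and the 4 samples with the genotype given as polq knockdown received CasRX and a Polq-targeting guide RNA. All embryos of both groups therefore carried the nuclease, the labels name no non-targeting guide for the controls, and the sources used here give neither strain nor embryo sex. Each value is thus a mean over the 5 embryos of a pool.

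Translation initiation brings the small ribosomal subunit, the initiator tRNA and an mRNA together at a start codon. The factor eIF2 carries the initiator tRNA and is recharged by eIF2B, eIF3 organises the small subunit, and eIF1, eIF1A and eIF5 govern the choice of the start codon. The cap of the mRNA is bound by eIF4E, which the scaffold eIF4G joins to the helicase eIF4A, and eIF5B brings in the large subunit. In the oocyte and the early embryo many stored maternal mRNAs are held inactive and then translated in turn, and proteins that bind eIF4E take part in holding them.

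Polq, the target of the guide, was at 39.3 ± 7.65 CPM in the controls, against 31.5 ± 11.0 CPM in the knockdown-labelled group (mean ± SD, n = 4 each; CPM are counts per 1000000, scaled between libraries). The ranges overlapped, from 32.7 to 49.7 CPM against 16.9 to 41.1 CPM, and the difference missed the 2-sided exact permutation test (p = 0.343, where 4 against 4 can reach 0.0286). Because Polq did not separate the groups, libraries are called knockdown-labelled by their label. Controls held 33311665 to 43748621 counts, knockdown-labelled replicates 1 to 3 held 4726159 to 8627403 counts, and knockdown-labelled replicate 4 held 33650050, so depth and group cannot be told apart except through that library. All 16 markers of oocytes and 2-cell embryos were tested, with summed levels of 34338 to 41517 CPM in controls and 29111 to 45039 CPM in knockdown-labelled libraries. Most of both sums was Dppa3, at 36672 ± 3300 CPM in controls and 35362 ± 6566 CPM in knockdown-labelled libraries. The other markers of this list had control means from 3.17 CPM for Zp1 and 5.26 CPM for Zar1 to 294 CPM for Tcstv3. Markers of cumulus and granulosa cells summed to at most 24.6 CPM, with 8 of 14 at 0 in every library, those of blood to at most 16.2 CPM, with 3 of 7 at 0, and those of sperm to at most 7.34 CPM, with 6 of 7 at 0.

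Several factors exist as pairs of related genes, and how well their reads can be told apart bears on every level below. The first 60 coding bases of 3 such pairs are shown, 5′ to 3′, from the GENCODE M21 transcripts (build GRCm38), with the bases that differ within a pair in capitals. The first pair encodes the start codon factor eIF1 and its paralogue, from Eif1 at chr11:100319885-100322096 (plus strand) and Eif1b at chr9:120492232-120495330 (plus strand), and differs at 5 of the 60 bases.
Eif1: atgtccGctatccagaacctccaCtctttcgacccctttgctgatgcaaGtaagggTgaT
Eif1b: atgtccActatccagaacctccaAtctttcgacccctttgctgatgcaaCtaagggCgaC

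The second pair encodes the gamma subunit of eIF2 from the X and the Y chromosome, from Eif2s3x at chrX:94188707-94212862 (minus strand) and Eif2s3y at chrY:1010543-1028847 (plus strand), and differs at 13 of the 60 bases.
Eif2s3x: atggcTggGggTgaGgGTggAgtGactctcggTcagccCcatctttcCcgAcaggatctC
Eif2s3y: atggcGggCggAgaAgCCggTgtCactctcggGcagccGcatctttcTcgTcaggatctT

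The pair of hypusine-carrying factors, Eif5a at chr11:69916714-69921958 (minus strand) and Eif5a2 at chr3:28781276-28798846 (plus strand), differs at 17 of the 60 bases.
Eif5a: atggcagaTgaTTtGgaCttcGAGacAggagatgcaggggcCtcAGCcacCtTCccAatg
Eif5a2: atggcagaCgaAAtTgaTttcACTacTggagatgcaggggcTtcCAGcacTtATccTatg

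Over the aligned coding sequence the identity was 81.3% of 342 bases for Eif1 and Eif1b, 86.3% of 1419 for Eif2s3x and Eif2s3y, and 72.7% of 462 for Eif5a and Eif5a2. No stretch of 50 bases in the transcripts of Eif1b, Eif2s3y or Eif5a2 occurred in another annotated gene, while 19.2% of those of Eif1 and 3.77% of those of Eif5a did. At the other end stood Eif3j1 and Eif3j2, identical over all 786 aligned coding bases, where 91.8% of the 50-base stretches of Eif3j2 recurred elsewhere. Their separate counts are an estimate of how shared reads divide and are uncertain. The same holds for Eif4ebp3 (65.5%), Eif4a3l2 (63.4%), Eif4a3l1 (47.5%), Eif3j1 (36.9%), Eif2s3x (34.6%, all with the predicted gene Gm2223), Eif4a1 (28.4%, mostly with the pseudogene Eif4a-ps4) and Eif3h (20.3%). Of the 54 genes, 26 shared under 1% of their stretches. Exons of 11 genes (Eif1ad, Eif1b, Eif2a, Eif2b4, Eif2d, Eif3d, Eif3j1, Eif3m, Eif4a2, Eif5b and Eif6) overlap in part a gene on the other strand. Only reads inside the overlap cannot be told apart from the partner's without the strand setting. The overlap was a small share of the exonic bases in Eif2a, Eif2d, Eif3m, Eif4a2 and Eif6, and its share was largest in Eif3d.

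Initiation factor transcripts made up a near-equal share of all counts in both groups, 0.927% ± 0.128 in the controls and 0.947% ± 0.0669 in the knockdown-labelled libraries (SD, n = 4 each). In bulk RNA from pooled embryos, fewer cells and less RNA per cell cannot be told apart. The 5 genes with the most counts, Eif2s2, Eif4e, Eif1, Eif5 and Eif4g2, held 64.9% of that share over the 8 libraries, and between 61.1% and 69.96% in single libraries. Levels between genes are compared per kilobase of the longest annotated protein-coding transcript (CPM per kb). Which transcript forms the embryos held was not tested, and another length would change these comparisons. By that measure Eif1 led with 951 ± 47.4 CPM per kb (SD over 8 libraries), followed by Eif2s2 with 818 ± 145, Eif4e with 284 ± 37.4, Eif5 with 192 ± 24.9, Eif3k with 141 ± 33.2 and Eif6 with 133 ± 39.0. Eif1 (874 to 1018 CPM per kb) and Eif2s2 (701 to 1152 CPM per kb) overlapped in their ranges, and so did Eif4e with Eif5, and Eif3k with Eif6, whereas the lowest Eif2s2 value lay above the highest Eif4e value, 323 CPM per kb.

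**Figure D1:**
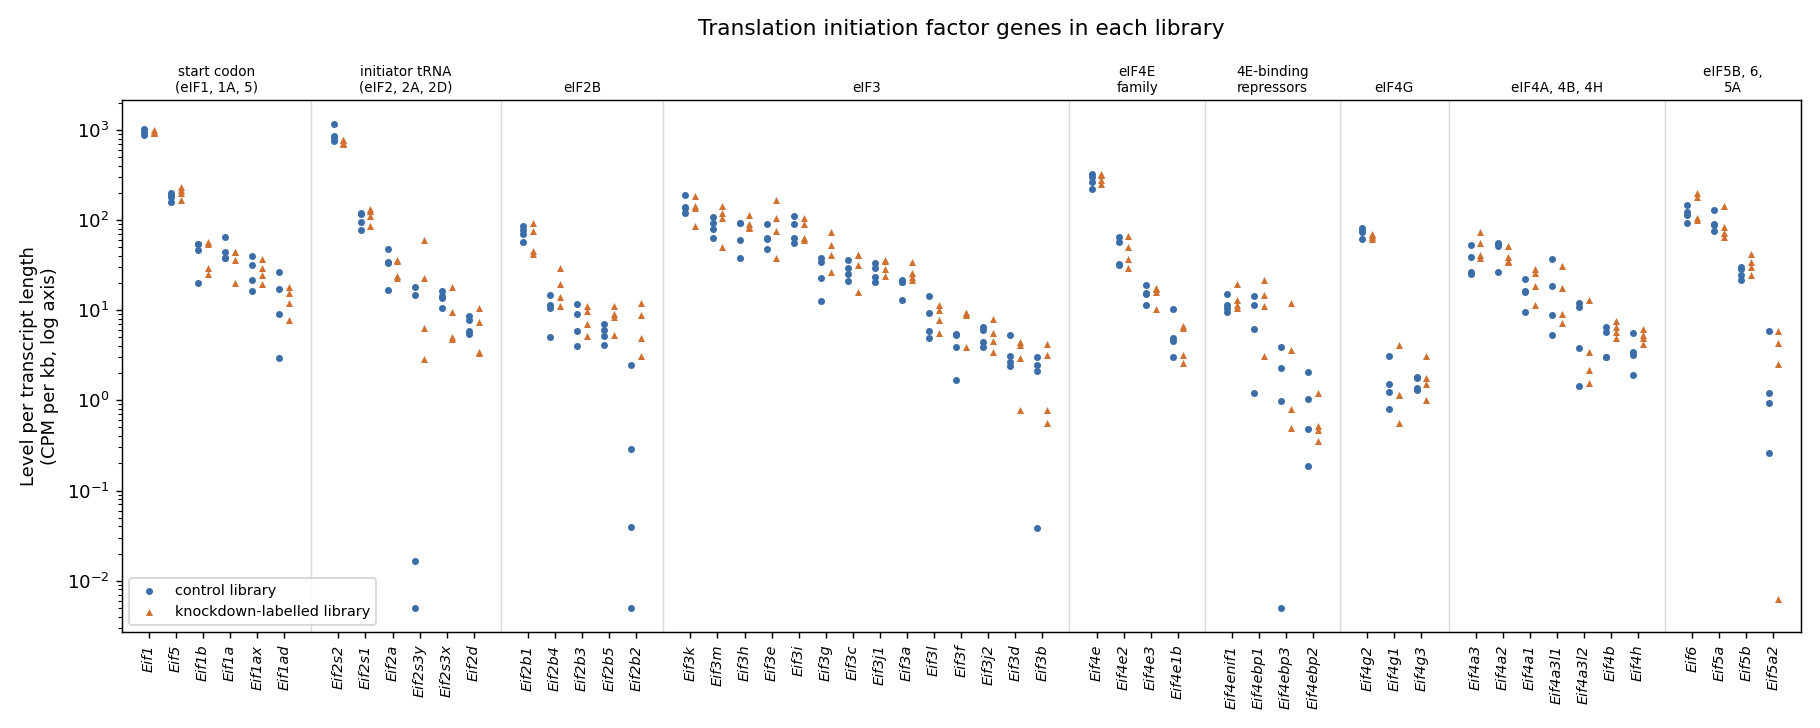
Level of each of the 53 tested initiation factor genes in each library, grouped by role and ordered by mean level within a role. Levels are in CPM per kb of the longest annotated protein-coding transcript, on a log axis. Circles are the 4 control libraries, triangles the 4 knockdown-labelled libraries, and values of 0 are drawn at 0.005 CPM per kb; the 2 sets of points overlap in every gene but Eif2b2, and the scatter widens toward the low genes.

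No initiation factor gene passed the comparison of the groups. edgeR's quasi-likelihood test with Benjamini-Hochberg adjustment over 13146 genes called 0 of 53 in either direction at an adjusted p of 0.05 (0% of all genes tested), the adjusted p being 0.9999 for each of the 53, and 0 of 53 had an unadjusted p under 0.05 (2.81% of all genes). DESeq2 also called 0 of the 53 (0.154% of 13002 genes with an adjusted p) with 2 at an unadjusted p under 0.05, and limma-voom called 0 with 2, Eif2b2 being among them with both tools. The log2 fold change, knockdown-labelled minus control, was positive in 32 and negative in 21 of the 53, against 46.6% positive over all genes. Its median was 0.12 for the initiation factor genes and -0.05 for all genes tested. Only Eif2b2 had groups without overlap, being higher in the knockdown-labelled group (1.44% of all genes did so in that direction), and 0 of 53 did so in the other (1.54% of all genes).

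The 95% interval of the log2 fold change lay inside a 2-fold difference either way for 23 of the 53 genes (15.5% of all genes tested), and for the other 30 it reached past 2-fold. The width followed the level. All 5 genes above 500 CPM had intervals inside 2-fold, as did 13 of 16 genes at 100 to 500 CPM, 5 of 17 at 20 to 100 CPM and 0 of 15 under 20 CPM. Across those classes the median coefficient of variation among the controls was 11.8%, 22.8%, 38.2% and 55.3%, in that order. A 2-fold difference in at least 1 direction was therefore not excluded for any gene of the lowest class. Fitted differences above 2-fold appeared in 3 genes, Eif2b2, Eif2s3y and Eif4ebp3, and each had an interval that included no difference.

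**Figure D2:**
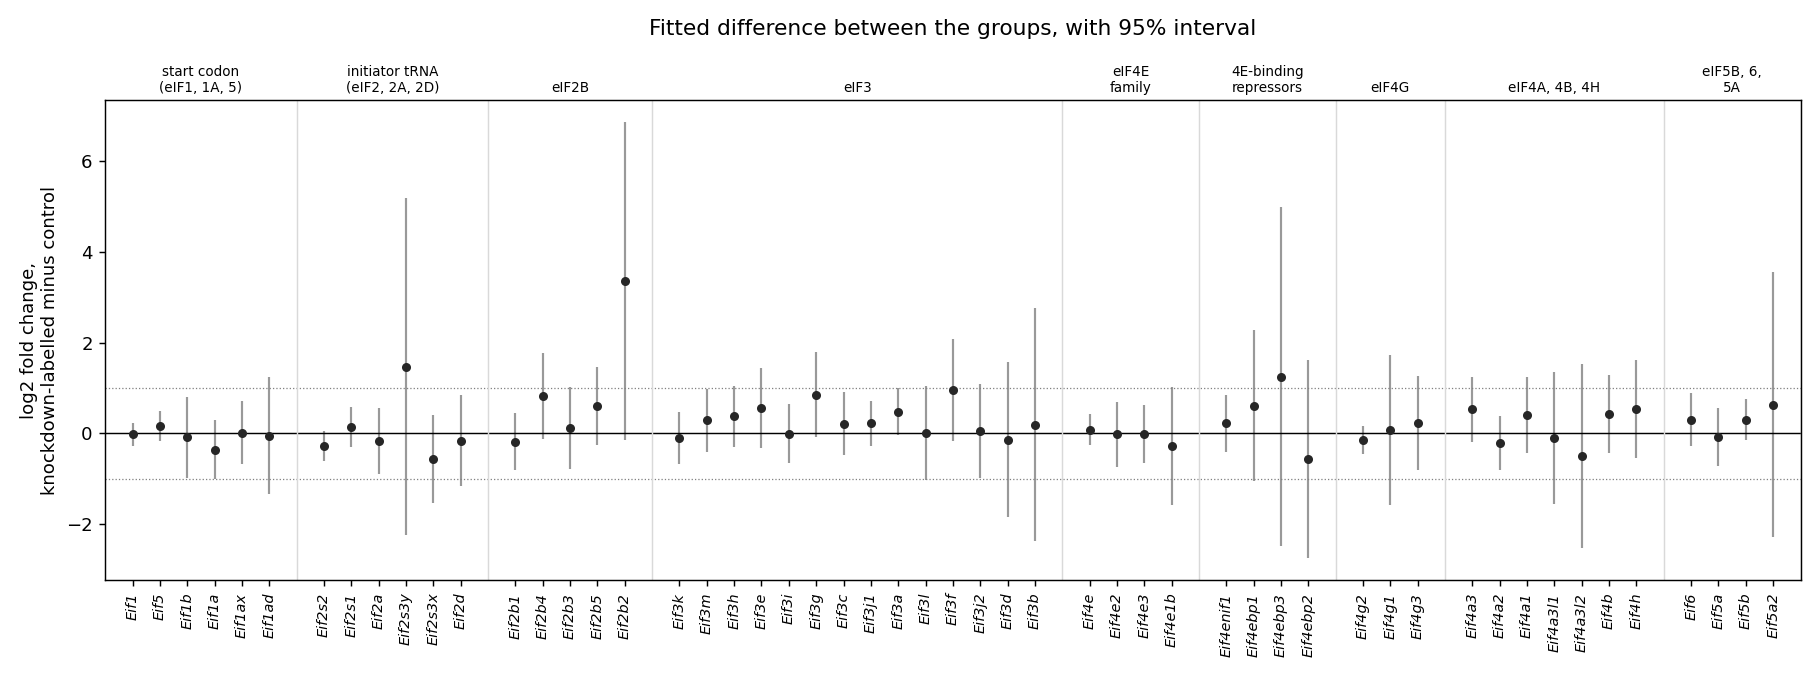
Fitted log2 fold change of each tested initiation factor gene, knockdown-labelled minus control, with its 95% interval from edgeR, in the order of the level plot. The dotted lines mark 2-fold either way and every interval crosses 0, with the widest at Eif2s3y, Eif4ebp3, Eif2b2 and Eif5a2.

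The genes grouped under start codon selection numbered 6, including Eif1ad, a gene with an eIF1A domain. Of these, 2 had positive and 4 had negative log2 fold changes (median -0.04). Eif1, which keeps the scanning ribosome open until a start codon is met, was at 1263, 1308, 1346 and 1155 CPM in control replicates 1 to 4 and at 1208, 1306, 1263 and 1214 CPM in knockdown-labelled replicates 1 to 4. All 8 values lay within 1.17-fold of each other and the groups overlapped, so Eif1 was the steadiest gene of the family. Its log2 fold change was -0.02 (SE 0.12), with an interval from 0.82-fold to 1.18-fold, and the sign turned with upper-quartile scaling and with library totals alone. Eif5, which triggers the hydrolysis of the GTP on eIF2, was at 734 ± 71.4 CPM in controls and 821 ± 117 CPM in knockdown-labelled libraries (log2 fold change 0.16, SE 0.15). Eif1b was at 56.6, 55.5, 48.6 and 20.9 CPM in the controls, against 55.5, 25.8, 30.3 and 59.3 CPM in the knockdown-labelled group (log2 fold change -0.09, SE 0.40). Per kb, Eif1 exceeded Eif1b 21.9-fold in the controls.

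Eif1a and Eif1ax, the autosomal and X-linked genes for eIF1A, were at 41.3 ± 12.5 and 27.3 ± 8.45 CPM per kb (SD over 8 libraries). Eif1a, on chromosome 18, was at 109, 109, 188 and 126 CPM in the controls, against 57.7, 104, 125 and 128 CPM in the knockdown-labelled group. The lowest value came from the library with the fewest counts, and the remaining 3 lay within the range of the controls or just under it. The log2 fold change was -0.36 (SE 0.29). Eif1ax, at chrX:159372178-159389928, was at 162, 83.8, 206 and 110 CPM in the controls, against 100.7, 152, 125 and 191 CPM in the knockdown-labelled group, with a log2 fold change of 0.02 (SE 0.31), negative without the filter on low counts. Of the 50-base stretches of Eif1a, 2.62% were shared, with Gm5039, Gm2016 and BB287469 the main partners. Those related genes stood at means of 439, 549 and 148 CPM in the controls, at or above Eif1a itself. Eif1ad, a gene with an eIF1A domain, ranged from 7.47 to 67.4 CPM in the controls, against 20.0 to 46.7 CPM in the knockdown-labelled group.

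Among the 6 genes that deliver the initiator tRNA, 2 had positive and 4 had negative log2 fold changes (median -0.17). Eif2s2, for the beta subunit of eIF2 (chr2:154871410-154892935), was at 2928, 2067, 1934 and 2196 CPM in the controls. In the knockdown-labelled libraries it was at 1972, 1813, 1782 and 1941 CPM. Control replicate 1 stood highest, and control replicate 3 fell inside the range of the other group, so the groups overlapped by that library. The log2 fold change was -0.28 (SE 0.15), with an interval from 0.65-fold to 1.04-fold, and Eif2s2 had the smallest p among the genes with a negative value. The subunits were unequal in RNA: per kb in the controls, Eif2s2 exceeded the alpha subunit gene Eif2s1 8.78-fold and the gamma subunit gene Eif2s3x 65.3-fold. Eif2s1, whose product is the phosphorylated target of the stress kinases, was at 348 ± 68.5 CPM in the controls, against 384 ± 69.4 CPM in the knockdown-labelled group. Eif2a and Eif2d, whose products can deliver the initiator tRNA apart from eIF2, had log2 fold changes of -0.17 (SE 0.33) and -0.16 (SE 0.45).

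The X-linked gamma subunit gene Eif2s3x was at 58.9, 38.9, 52.7 and 49.9 CPM in the controls, against 18.2, 17.3, 66.2 and 34.5 CPM in the knockdown-labelled group. Knockdown-labelled replicates 1 and 2 were the lowest of the 8, replicate 3 was the highest, and the groups overlapped (log2 fold change -0.56, SE 0.43, and -1.10 without replicate 3). Eif2s3y had 1, 0, 1448 and 1171 counts in the controls, or 0.031, 0, 33.1 and 27.3 CPM. In the knockdown-labelled libraries it had 210, 898, 100 and 168 counts, or 41.6, 109, 11.6 and 5.26 CPM. It was thus at or near 0 in control replicates 1 and 2 and present in the other 6 libraries, and both groups overlapped through control replicates 3 and 4 (log2 fold change 1.47, SE 1.66). Without knockdown-labelled replicate 2 it was 0.36 and without control replicate 3 it was 2.20. With knockdown-labelled replicate 4 as the only library of its group the log2 fold change was -1.52.

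Summed, the 7 other Y-linked genes of the list varied with Eif2s3y in the controls, and singly only some of them did. Their summed level was 0.825 and 0.630 CPM in control replicates 1 and 2, 21.5 and 20.1 CPM in control replicates 3 and 4, and 70.2, 123, 38.0 and 38.0 CPM in knockdown-labelled replicates 1 to 4. Uba1y was at 0 in every library, and Ddx3y, Zfy2 and Uba1y did not pass the filter on low counts. Gene by gene, Uty (9, 9, 452 and 653 counts) and Kdm5d (18, 10, 83 and 122 counts) followed Eif2s3y over control replicates 1 to 4. Usp9y was at 0 in control replicate 3, and Zfy1 was at 0 in control replicate 4. Xist, the RNA that coats an inactive X, had 0 to 3 counts per library. The number of male embryos in each pool is not given in the labels, and its part in these differences was not tested.

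**Figure D3:**
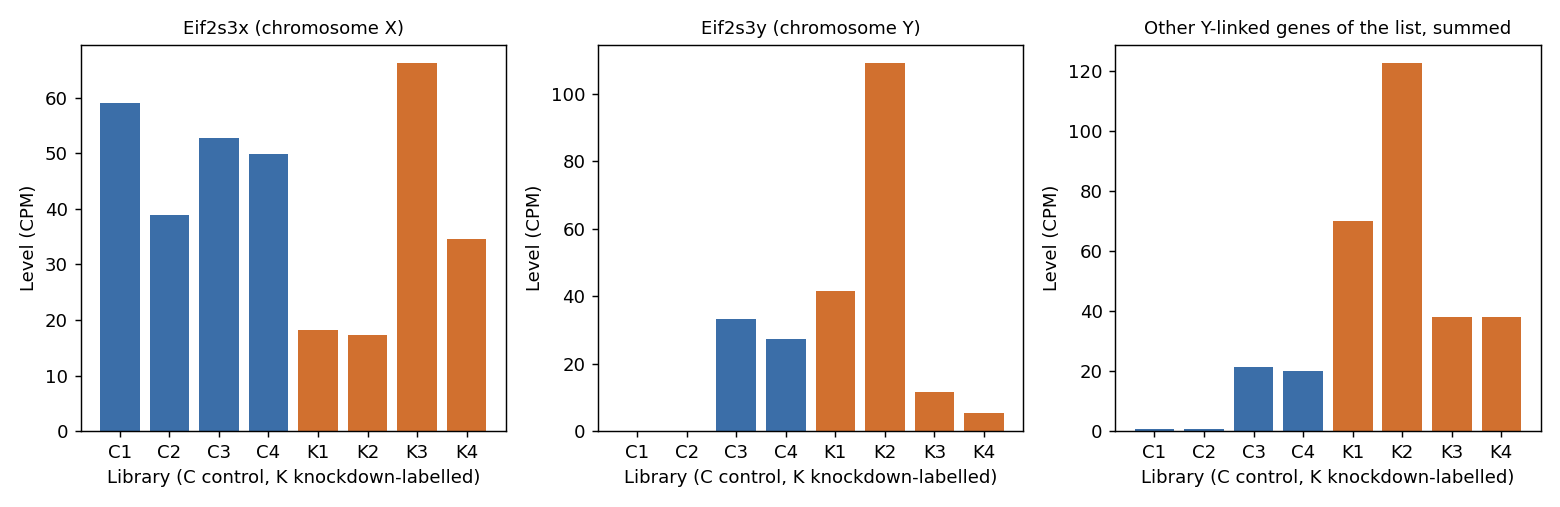
Levels in CPM, on separate linear axes from 0, of Eif2s3x, of Eif2s3y and of the 7 other Y-linked genes summed, in control libraries C1 to C4 and knockdown-labelled libraries K1 to K4. Eif2s3y and the sum of the other Y-linked genes are at or near 0 in C1 and C2 and present in the other 6 libraries. Eif2s3x is lowest in K1 and K2, at 18.2 and 17.3 CPM.

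The exchange factor eIF2B recharges eIF2 with GTP, and 4 of its 5 subunit genes had positive log2 fold changes (median 0.60). Eif2b2, for the beta subunit (chr12:85219481-85226628, plus strand), had 15, 2, 0 and 171 counts in the controls and 25, 160, 68 and 452 in the knockdown-labelled libraries. Scaled, this was 0.459, 0.063, 0 and 3.98 CPM against 4.96, 19.4, 7.86 and 14.2 CPM. Every knockdown-labelled library lay above every control, although control replicate 4 was within 1 CPM of knockdown-labelled replicate 1. The log2 fold change was 3.36 (SE 1.57), with an interval from 0.91-fold to 116-fold. It had the smallest p of the 53 genes, and without control replicate 4 the log2 fold change was 6.03 (edgeR adjusted p = 0.870). Over all alternatives its adjusted p was 0.438 or above.

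The remaining eIF2B genes were better covered. Eif2b1, for the alpha subunit, was at 158, 113, 140 and 173 CPM in the controls, against 92.0, 152, 84.8 and 185 CPM in the knockdown-labelled group (log2 fold change -0.18, SE 0.28). Knockdown-labelled replicates 1 and 3 lay below all controls and replicate 4 above them. The delta subunit gene Eif2b4 had a log2 fold change of 0.82 (SE 0.42), the epsilon subunit gene Eif2b5, for the catalytic subunit, 0.60 (SE 0.39), and the gamma subunit gene Eif2b3 0.12 (SE 0.41). Summed over the 5 genes, eIF2B was at 211 ± 33.9 CPM in the controls, against 230 ± 50.5 CPM in the knockdown-labelled group, with Eif2b1 holding most of the counts.

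The 14 genes of eIF3, the largest initiation factor, included 11 with positive and 3 with negative log2 fold changes (median 0.22), and 0 passed the test. Eif3a, for the large scaffold subunit (chr19:60761117-60790658), was at 104, 105, 66.9 and 112 CPM in the controls, against 111, 119, 176 and 133 CPM in the knockdown-labelled group. Control replicate 3 stood below the rest, and the groups overlapped only between control replicate 4 and knockdown-labelled replicate 1. The log2 fold change was 0.48 (SE 0.23). Eif3g, an RNA-binding subunit, was at 37.2, 13.9, 25.0 and 42.1 CPM in the controls, against 29.0, 45.6, 80.3 and 58.2 CPM in the knockdown-labelled group (log2 fold change 0.85, SE 0.42). Here knockdown-labelled replicate 1 lay among the controls and the other 3 lay above them.

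Although eIF3 works as a single complex, its genes spanned a 68.9-fold range in RNA per kb, from Eif3b at 2.05 ± 1.47 to Eif3k at 141 ± 33.2 CPM per kb (SD over 8 libraries). Eif3k, for a small peripheral subunit, was at 124, 107, 128 and 172 CPM in the controls, against 77.9, 167, 129 and 123 CPM in the knockdown-labelled group (log2 fold change -0.10, SE 0.26). Eif3m followed at 94.96 CPM per kb, Eif3h at 81.3, Eif3e at 80.8 and Eif3i at 79.7. Eif3b, Eif3d and Eif3f lay at 2.05, 3.23 and 5.94 CPM per kb, and Eif3b was at 0.114 CPM in control replicate 3 against 6.24 to 8.87 CPM in the other controls. Eif3f was at 13.2, 9.73, 4.19 and 13.5 CPM in the controls, against 23.4, 23.3, 22.4 and 9.75 CPM in the knockdown-labelled group, so 3 of these lay above all controls and replicate 4 among them (log2 fold change 0.95, SE 0.51). Fitted log2 fold changes were 0.19 (SE 1.15) for Eif3b and -0.14 (SE 0.77) for Eif3d. The remaining subunit genes, Eif3c, Eif3j1, Eif3j2, Eif3l, Eif3m, Eif3e, Eif3h and Eif3i, had log2 fold changes between -0.01 and 0.56.

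In the family of cap-binding proteins Eif4e dominated. It was at 1497, 1113, 1303 and 1605 CPM in the controls, against 1250, 1587, 1613 and 1377 CPM in the knockdown-labelled group. The groups overlapped throughout, with a log2 fold change of 0.08 (SE 0.15) and an interval from 0.83-fold to 1.34-fold. Per kb in the controls, Eif4e exceeded Eif4e2, whose product binds caps without engaging eIF4G, 5.95-fold, and Eif4e1b, an oocyte-enriched relative, 49.0-fold. Eif4e1b was at 6.45, 21.7, 9.63 and 10.4 CPM in the controls, against 14.3, 13.4, 6.70 and 5.48 CPM in the knockdown-labelled group (log2 fold change -0.28, SE 0.58). Eif4e2 was at 161 ± 58.6 CPM in the controls, against 159 ± 55.4 CPM in the knockdown-labelled group, and Eif4e3 at 38.4 ± 7.79 and 38.2 ± 8.32 CPM. Of these 4 genes, Eif4e had a positive and the other 3 negative log2 fold changes (median -0.01).

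The proteins that bind eIF4E and keep it from eIF4G were represented by 4 genes, 3 with positive and 1 with negative log2 fold changes (median 0.42). Eif4enif1, which encodes the transporter 4E-T of stored mRNP particles, was the most abundant per kb and was at 42.7, 55.8, 39.1 and 35.0 CPM in the controls. In the knockdown-labelled libraries it was at 42.2, 38.8, 48.4 and 71.6 CPM, with replicate 4 alone above the controls (log2 fold change 0.22, SE 0.28). Eif4ebp1, a repressor released by mTOR phosphorylation, was at 22.6, 12.3, 2.40 and 28.7 CPM in the controls, against 22.4, 43.1, 6.12 and 29.1 CPM in the knockdown-labelled group. Its relative Eif4ebp2 was at 11.8, 6.02, 2.81 and 1.09 CPM in the controls, against 2.97, 2.07, 6.93 and 2.73 CPM in the knockdown-labelled group. Within each group these repressor genes varied several-fold between libraries, and their log2 fold changes were 0.61 (SE 0.74) and -0.56 (SE 0.98). Eif4ebp3 was at 0 to 2.90 CPM in the controls, against 0.364 to 9.01 CPM in the knockdown-labelled group.

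Among the scaffold genes Eif4g2 was by far the most abundant. Its product resembles eIF4G but lacks the part that binds eIF4E, and serves initiation without it. Eif4g2 (chr7:111067750-111083030) was at 620, 490, 650 and 589 CPM in the controls, against 565, 544, 495 and 517 CPM in the knockdown-labelled group (log2 fold change -0.15, SE 0.14). Per kb in the controls it exceeded Eif4g1, which encodes the canonical scaffold, 44.1-fold and Eif4g3 47.1-fold. Eif4g1 was at 17.5, 6.96, 4.51 and 8.63 CPM in the controls, against 3.17, 6.44, 23.2 and 6.42 CPM in the knockdown-labelled group. Its log2 fold change was 0.07 (SE 0.74) and turned to -0.81 without knockdown-labelled replicate 3, -0.05 without control replicate 2 and -0.17 without control replicate 3. Eif4g3 was at 14.8, 10.5, 14.3 and 11.2 CPM in the controls, against 12.3, 25.0, 14.3 and 8.15 CPM in the knockdown-labelled group (log2 fold change 0.23, SE 0.47).

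The helicase eIF4A unwinds the leader of the mRNA with the help of eIF4B and eIF4H. Their genes were grouped with Eif4a3 and its relatives, and 4 of the 7 genes in this group had positive log2 fold changes (median 0.40). Eif4a2 was at 72.0, 139, 149 and 146 CPM in the controls, against 92.8, 95.7, 141 and 105 CPM in the knockdown-labelled group. Control replicate 1 was the lowest of the 8 (log2 fold change -0.22, SE 0.27). Eif4a1 was at 28.6, 39.1, 28.04 and 17.1 CPM in the controls, against 32.9, 45.4, 20.5 and 50.3 CPM in the knockdown-labelled group (log2 fold change 0.40, SE 0.37), and per kb in the controls Eif4a2 exceeded it 2.93-fold. Eif4a3, whose product belongs to the exon junction complex, was at 40.3, 58.7, 38.3 and 80.2 CPM in the controls, against 62.5, 110, 84.5 and 56.7 CPM in the knockdown-labelled group (log2 fold change 0.53, SE 0.32). Eif4b and Eif4h were low, at 5.36 and 4.33 CPM per kb, with log2 fold changes of 0.43 (SE 0.39) and 0.54 (SE 0.49). The Eif4a3 relatives Eif4a3l1 and Eif4a3l2 ranged from 8.33 to 57.8 CPM and from 1.94 to 17.5 CPM over the 8 libraries.

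The late factors comprised eIF5B, eIF6, which keeps free large subunits from joining small ones, and eIF5A, which carries the amino acid hypusine and helps peptide bond formation. Of their 4 genes, 3 had positive and 1 a negative log2 fold change (median 0.30). Eif5b was at 222, 171, 236 and 193 CPM in the controls, against 190, 233, 265 and 327 CPM in the knockdown-labelled group, the upper 2 of which lay above all controls (log2 fold change 0.31, SE 0.20). Eif6 was at 171, 138, 182 and 222 CPM in the controls, against 159, 298, 151 and 270 CPM in the knockdown-labelled group (log2 fold change 0.30, SE 0.26). Eif5a was at 109, 127, 188 and 130 CPM in the controls, against 208, 104, 121 and 92.5 CPM in the knockdown-labelled group (log2 fold change -0.08, SE 0.29). Per kb in the controls it exceeded Eif5a2 46.8-fold. Eif5a2 was at 4.71, 6.08, 1.30 and 29.3 CPM in the controls, against 21.6, 29.9, 12.8 and 0.031 CPM in the knockdown-labelled group. The last of these values is 1 count in a library of 33650050, so the gene went from near absence to about 30 CPM within a group (log2 fold change 0.63, SE 1.31). Leaving out control replicate 4 gave 1.99, and leaving out knockdown-labelled replicate 2 gave 0.14.

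**Figure D4:**
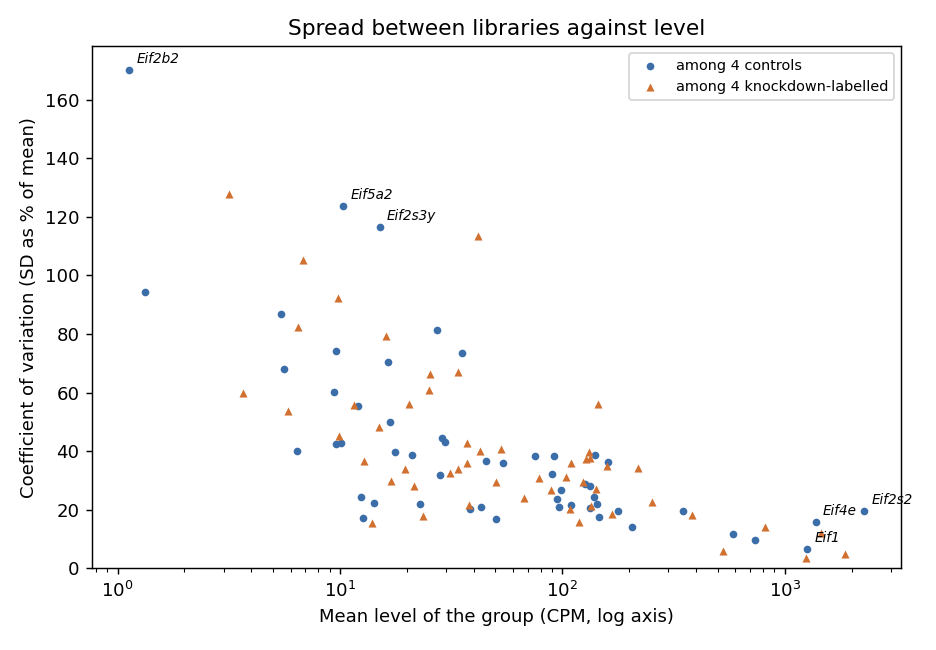
Coefficient of variation (SD as a percentage of the mean) of each tested initiation factor gene among the 4 libraries of a group, against the mean level of that group in CPM on a log axis. Circles are the controls and triangles the knockdown-labelled libraries; the spread narrows from Eif2b2 at the low end to Eif1, Eif4e and Eif2s2 at the high end, where the controls lie between 6.51% and 19.5%.

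Ratios within a library depend little on how libraries are scaled, and 8 pairs of related genes were compared in this way (log2 ratio of CPM plus 0.5, 2-sided exact permutation over 70 assignments, adjusted over the 8 pairs). The balance of Eif1a to Eif1ax was -0.03 ± 0.41 in the controls and -0.48 ± 0.34 in the knockdown-labelled libraries (SD, n = 4 each; exact p = 0.171, adjusted 0.686). For Eif2s3x to Eif2s3y it was 3.66 ± 3.35 and 0.32 ± 2.63 (exact p = 0.171, adjusted 0.686), and control replicates 1 and 2, with Eif2s3y at or near 0, had the highest ratios, 6.81 and 6.30. The other 6 pairs, Eif1 with Eif1b, Eif4a1 with Eif4a2, Eif4e with Eif4e1b, Eif4g1 with Eif4g3, Eif4ebp1 with Eif4ebp2 and Eif5a with Eif5a2, differed by -0.46 to 0.99 with exact p of 0.343 or above. Within the knockdown-labelled group the ratio of Eif2s3x to Eif2s3y was -1.17 and -2.63 in replicates 1 and 2, where Eif2s3y had the higher CPM, and 2.47 and 2.60 in replicates 3 and 4.

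Genes that act on or beside the initiation factors were taken from 5 lists, and 0 passed the test. Of 8 tested genes for eIF2 kinases and their phosphatase 6 had positive log2 fold changes (median 0.26), of 11 for elongation and release 8 (median 0.17), of 19 for translational control in the oocyte 6 (median -0.16), of 19 partners of initiation 11 (median 0.12) and of 14 in signalling to initiation 9 (median 0.23). The unadjusted edgeR p was under 0.05 for 1 of 19 partners of initiation and 1 of 14 genes in signalling to initiation. It was so for 0 genes of the other lists and for 2.81% of all genes tested. The smallest p in these lists belonged to Dhps, for deoxyhypusine synthase, which starts the hypusine modification of eIF5A. Dhps was at 12.9 ± 4.66 CPM in the controls, against 32.6 ± 9.31 CPM in the knockdown-labelled group (log2 fold change 1.33, SE 0.39), with ranges of 8.69 to 17.0 and 25.1 to 46.0 CPM that did not overlap (2.98% of all genes did not overlap in either direction). Rheb, the GTPase that activates mTORC1, was at 173 ± 10.2 CPM and 248 ± 24.2 CPM (log2 fold change 0.52, SE 0.15), with ranges of 162 to 184 and 226 to 282 CPM. Both had an edgeR adjusted p of 0.9999. The lowest adjusted p under an alternative came from DESeq2, at 0.210 for Rheb and 0.267 for Dhps, and the highest lay above 0.9999.

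Akt1, a kinase upstream of mTORC1, also did not overlap, in the other direction (1.54% of all genes tested did so). It was at 9.95 to 15.5 CPM in the controls, against 4.14 to 9.82 CPM in the knockdown-labelled group (log2 fold change -0.93, SE 0.52). Ncbp1, for the large subunit of the nuclear cap-binding complex, was at 25.7 to 45.5 CPM and 46.0 to 66.6 CPM, again without overlap (log2 fold change 0.46, SE 0.27). Of all genes tested, 1.44% were higher without overlap. Among the genes of translational control in the oocyte, the helicase gene Ddx6 had the smallest p, at 29.6 ± 16.8 CPM in the controls, against 11.6 ± 6.88 CPM in the knockdown-labelled group (log2 fold change -1.35, SE 0.63). Gigyf2, a partner of the cap-binding protein from Eif4e2, had a log2 fold change of -0.49 (SE 0.33). In the lists of elongation and of eIF2 kinases the values were -0.40 (SE 0.20) for Eef1e1, -1.15 (SE 0.89) for Gspt2, 2.23 (SE 1.28) for Gcn1 and 2.63 (SE 1.90) for Impact, the last 2 at means under 5 CPM in both groups. Gspt2 was at -0.21 without control replicate 2. Without knockdown-labelled replicate 3, Gcn1 was at 1.17 and Impact at 1.99, and without control replicate 3 they were at 2.82 and 4.07. None of these differences passed the edgeR test.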

How the data were processed

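Expected counts per gene were deposited by the authors, not normalised, and per the submitters' processing notes came from RSEM 1.2.28 and STAR 2.7.3a, with Trim Galore 0.6.10, on GRCm38 (mm10). TRIzol was used for the RNA and a NEBNext Ultra RNA kit for the libraries, per the labels' protocols. The sources used here give no annotation release or strand setting. RSEM splits reads shared between genes by estimation, and copies made by amplification are counted like other reads.

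Expected counts were rounded, which altered 4.22% of all values and 14.4% of the values above 0. Genes were filtered with filterByExpr (minimum count 10, total 15) and libraries scaled by TMM. All 13146 genes were fitted with edgeR 4.0.16 (robust quasi-likelihood, group as the only term, R 4.3.3), with Benjamini-Hochberg adjustment and a threshold of 0.05. Intervals are 95% and SEs come from the estimate and its F statistic. Alternatives used DESeq2 1.42.0 (144 genes without an adjusted p stayed out) and limma 3.58.1, other scalings and filters, a replicate block, thinning to the smallest library, and leaving out libraries. The code was tested on simulated data with the measured spread. Genes set to differ 2-fold were detected in 4 of 100 cases, and those set to differ 4-fold in 43 of 100. Genes below a lower bound on mean CPM were not set to differ, so these rates do not cover the lowest genes. Wrong detections numbered 2 out of 49. A count of 0 genes past the test therefore does not by itself exclude differences of that size. Annotation came from GENCODE M21 (52 symbols matched, 2 through older names).

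The members, lists and alternatives were chosen with earlier results of these data known. Values are given for each role's most abundant gene per kb and smallest p, all paralogue pairs, the 3 smallest p in each direction, and 2 genes per neighbouring list by smallest p. Others were named after their values were seen. Biological replicates is the series text's own term for the 4 samples per group.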

Additional observations from a re-analysis of the deposited data

Results flagged for a closer look

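Among 106 sets of 4 libraries (53 genes in each group), 7 held a library whose gap to its nearest neighbour exceeded Dixon's 95% critical value, as a share of the set's range. That value flags about 5% of sets of 4 independent, normally distributed values, and 6.60% of the sets here were flagged. Whether the CPM of these genes are so distributed was not tested.

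In the controls, Eif2b2 was at 3.98 CPM in replicate 4, against 0 to 0.459 CPM in the other 3. Eif5a2 was at 29.3 CPM in the same library, against 1.30 to 6.08 CPM. Eif3a was at 66.9 CPM in control replicate 3, against 104 to 112 CPM. Eif4a2 was at 72.0 CPM in control replicate 1, against 139 to 149 CPM.

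In the knockdown-labelled libraries, Eif3f was at 9.75 CPM in replicate 4, against 22.4 to 23.4 CPM in the other 3. Eif4a3l2 was at 17.5 CPM in replicate 2, against 2.13 to 4.74 CPM. Eif4g1 was at 23.2 CPM in replicate 3, against 3.17 to 6.44 CPM. These 7 values came from 6 of the 8 libraries.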

How the results depend on the processing

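The count of initiation factor genes past the test was 0 under every alternative run, including each library left out in turn. Their median log2 fold change stayed positive, at 0.09 to 0.16 over the other settings and 0.071 to 0.25 with a library left out, the lowest and the highest being those without knockdown-labelled replicates 2 and 1. Over all genes, DESeq2 called 20, of which 14 were higher, and edgeR 0. Of 679 values of named genes under alternatives, 640 kept their sign, 39 did not and 0 passed the threshold.

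The signs that turned belonged to small or widely spread values. Eif1 was at 0.010 with upper-quartile scaling, 0.013 with library totals alone and 0.0055 after thinning. Eif1ax was at -0.020 without the filter. With limma-voom, Eif1b was at 0.090, Eif4g1 at -0.12, Eif4g3 at -0.17 and Eif5a2 at -3.21, and after thinning Eif1b was at 0.045. With knockdown-labelled replicate 4 as the only library of its group, Eif1b was at 0.39, Eif2b1 at 0.34, Eif2s3y at -1.52, Eif4g1 at -0.54, Eif4g3 at -0.63, Eif5a2 at -8.22 and Polq at 0.073; that library was assumed to vary like the controls. The cause was not tested.

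With a library left out, ranges that crossed 0 were -0.067 to 0.0039 for Eif1, -0.16 to 0.26 for Eif1ax, -0.33 to 0.10 for Eif1b, -0.26 to 0.071 for Eif3k, -0.0082 to 0.16 for Eif4e, -0.50 to 0.17 for Eif4e1b, -1.07 to 0.16 for Eif4ebp2, -0.0051 to 0.38 for Eif4enif1, -0.81 to 0.55 for Eif4g1, -0.13 to 0.44 for Eif4g3 and -0.39 to 0.10 for Eif5a. Among the ratios they were -0.17 to 0.35 for Eif1 to Eif1b, -0.10 to 0.60 for Eif4e to Eif4e1b, -0.77 to 0.081 for Eif4g1 to Eif4g3 and -1.64 to 0.31 for Eif5a to Eif5a2. Other pseudocounts turned no ratio.

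Same-numbered libraries did not deviate together (correlations of -0.19, -0.03, -0.02 and 0.02 over 6049 genes), and differently numbered ones gave -0.12 to 0.19. The labels do not say whether replicate numbers mark a shared batch, and these correlations cannot decide it. A replicate block gave 0 calls, a median of 0.14 for the initiation factor genes and -0.18 for Eif4g1. Counts were low for some genes: 15 tested genes had under 100 counts in knockdown-labelled replicate 1, and 3 had 0 counts in at least 1 library, each time a control, so these zeros were not in the shallow libraries.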
